A study of Mus musculus with 4 samples.

Results

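A set of 10 genes of the megakaryocyte and platelet lineage were followed in hematopoietic stem cells (HSCs), namely Pf4, Ppbp, Gp1bb, Gp9, Gp6, Itga2b, Itgb3, Vwf, Selp and Treml1. The genes were chosen by name and found by gene symbol, and 9 of the 10 had a row among the 19354 genes listed. Gp6, which encodes the platelet collagen receptor, was not analysed here. HSCs were sorted as Lin-Sca1+c-Kit+ (LSK) FLT3- CD48- CD150+ bone marrow cells. The control mice were Mx1-Cre Id2+/+, and the mice to be deleted were Mx1-Cre Id2fl/fl, called Id2Δ/Δ after deletion. All mice carried the Mx1-Cre transgene and all received polyinosinic:polycytidylic acid (pIpC), which mimics viral RNA and turns on the interferon-inducible Mx1 promoter, so that interferon signalling and Cre were common to both genotypes. Mx1-Cre acts in hematopoietic cells and in other interferon-responsive cells. Mice were 8 to 16 weeks old, and HSCs were taken 2 weeks after pIpC. Cells of 14 Id2+/+ and 15 Id2fl/fl mice were pooled over 2 experiments, and each genotype gave 2 libraries, called replicates 1 and 2 here. The labels do not say which experiment or which mice a library came from. The p-values weigh the genotype difference against the spread between libraries of a genotype, with the variance moderated over all genes tested. Whether that spread covers the spread between mice is not known.

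Megakaryocytes are the large bone marrow cells that shed platelets. Platelets carry surface receptors that hold them to a damaged vessel wall and to each other, and alpha granules filled with adhesive proteins and chemokines that are released on activation. Genes of this lineage are also transcribed in HSCs, and some HSCs are biased toward making platelets, a state marked in mice by Vwf and Itga2b (CD41). GATA1, ETS factors such as FLI1, and RUNX1 are the main transcription factors of megakaryocyte genes. ID2 does not bind DNA itself but holds E proteins, which bind the E-box CANNTG, away from DNA. The comparison of Id2+/+ and Id2Δ/Δ libraries addresses whether transcripts of this lineage differ in HSCs that have lost Id2.

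Promoter sequence was read for the 8 genes that had an entry among the RefSeq promoter windows of GRCm38.p6, which span 250 bases before to 50 bases after the start, 300 bases in all. Vwf and Itgb3 had no entry. The windows of Pf4, Gp1bb and Gp9 are printed 5′ to 3′ on the strand of the gene, because these are the genes with a window whose Id2Δ/Δ libraries both lay above both Id2+/+ libraries. Capitals mark matches to the GATA motif (GATA with A or T before it and A or G after it) and the ETS motif (CCGGAA or CAGGAA) on either strand. The windows are at chr5:90772185-90772484 (plus strand), chr16:18622354-18622653 (minus strand) and chr6:87777820-87778119 (plus strand), in the order shown.
Pf4: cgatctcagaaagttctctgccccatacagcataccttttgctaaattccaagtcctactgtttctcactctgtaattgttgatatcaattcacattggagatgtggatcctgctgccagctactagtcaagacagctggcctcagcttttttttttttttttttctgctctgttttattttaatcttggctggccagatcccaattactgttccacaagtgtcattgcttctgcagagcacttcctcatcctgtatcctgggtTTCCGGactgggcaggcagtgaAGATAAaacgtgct
Gp1bb: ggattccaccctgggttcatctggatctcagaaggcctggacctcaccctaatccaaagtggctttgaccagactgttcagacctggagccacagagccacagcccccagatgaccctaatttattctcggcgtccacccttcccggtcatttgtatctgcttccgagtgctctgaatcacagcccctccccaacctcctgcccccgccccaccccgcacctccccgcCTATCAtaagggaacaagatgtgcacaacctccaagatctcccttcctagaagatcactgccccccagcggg
Gp9: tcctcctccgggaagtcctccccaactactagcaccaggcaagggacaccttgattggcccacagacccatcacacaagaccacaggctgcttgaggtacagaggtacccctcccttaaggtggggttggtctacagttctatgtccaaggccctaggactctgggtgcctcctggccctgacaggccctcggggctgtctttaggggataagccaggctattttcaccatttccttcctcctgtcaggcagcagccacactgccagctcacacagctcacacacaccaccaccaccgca
The Pf4 window holds TTCCGG, an ETS motif on the other strand, 14 bases after the start and AGATAA 36 bases after it. The Gp1bb window holds CTATCA 22 bases before the start, which is a GATA motif on the other strand. The Gp9 window holds neither motif. Of the 7 genes with both a window and a row, 2 held a GATA motif, against 29.8% of all 32851 windows in the table, and 4 held an ETS motif, against 41.4%. The RUNX motif (TGTGGT or TGCGGT) was found in 1 of the 7, which is Gp9, and in 22.4% of all windows. An E-box was found in 6 of the 7, Gp9 being the exception, and in 72.3% of all windows. The narrower forms CAGCTG and CACCTG, which lie within the E-box count, were found in 3 of the 7 and in 32.9% of all windows. GATA and ETS matches did not overlap each other in these windows. A match describes letters and not a bound site.

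The authors deposited quantile-normalized log2 counts-per-million (CPM) values, and below 32 CPM the order of the values in a library gives whole reads. Depths derived from these reads were 14207350 and 15663326 reads in Id2+/+ replicates 1 and 2, and 17761330 and 18831991 reads in Id2Δ/Δ replicates 1 and 2, and 3 reads, which a count of 0 allows, are 0.159 to 0.211 CPM. Id2 itself was counted 93 and 98 times in Id2+/+ libraries and 0 times in both Id2Δ/Δ libraries. Of the genes the sort used, Kit was at 10.19 to 11.08 log2 CPM and Ly6a (Sca1) at 6.70 to 7.08 log2 CPM, while Cd48, which the sort selects against, was at 1.40 to 3.04 log2 CPM. Slamf1 (CD150), which the sort selects for, was at 5.70 to 6.08 log2 CPM. Flt3, which the sort also selects against, was at 5.47 to 5.63 log2 CPM, only just under Slamf1 and well above Cd48. In bulk libraries, fewer cells with a transcript and less of it per cell cannot be told apart. Genotypes were compared with limma over the 15895 genes whose mean reached 1 CPM, and differences are Id2Δ/Δ minus Id2+/+ on the log2 scale. Genes were called where the adjusted p was under 0.05.

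All 9 listed genes were detected in both libraries of each genotype. Of these, 8 had a higher mean and 1 (Ppbp) a lower mean in Id2Δ/Δ HSCs, beside 8222 higher and 7673 lower of all genes tested. The 8 include Vwf, with a difference of only 0.00093, and Itga2b, with 0.06. None of the 9 was called. The background over all genes was also 0%, since 0 of 15895 genes were called and the smallest adjusted p was 0.910. Id2 itself, at 0 reads in both Id2Δ/Δ libraries, was among the genes not called. The lack of a call in this fit therefore does not show a lack of difference. Without adjustment, 742 of all genes (4.67%) had a p under 0.05. Pf4 and Gp1bb were the 2 of 9 with an unadjusted p under 0.05 in the higher direction, where the background was 1.72% of all genes, and 0 of 9 were under it in the lower direction, where the background was 2.95%. For 4 of the 9 genes (44.4%), each Id2Δ/Δ library was above each Id2+/+ library (19.0% of all genes), and for 1 of the 9 (11.1%) below (15.8% of all genes). These 4 are Pf4, Gp1bb, Gp9 and Itgb3. The median difference of the 9 genes was 0.20, beside 0.01 for all genes. With 2 libraries a genotype, the smallest two-sided p that exact permutation can give for a single gene is above 0.05, so no such test was used.

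**Figure D1:**
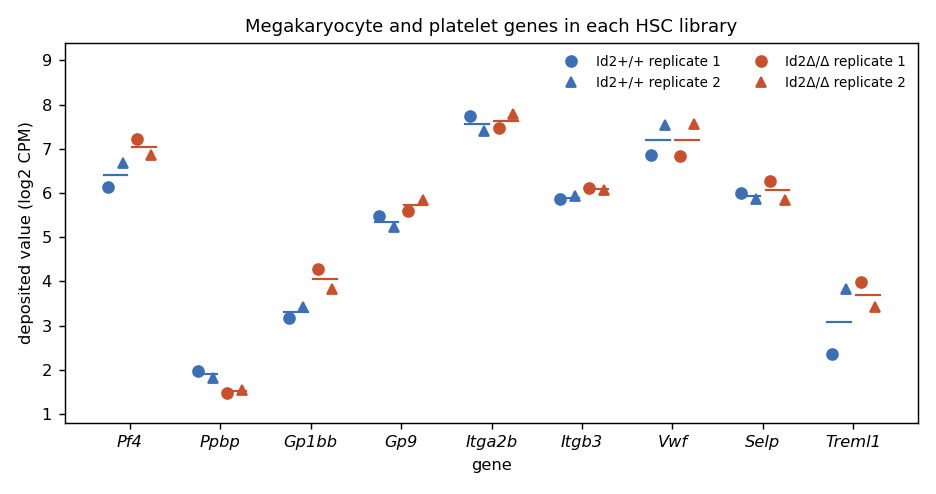
Deposited log2 CPM of the 9 genes in each library, with circles for replicate 1, triangles for replicate 2 and short lines at the mean of the 2 libraries of a genotype. Pf4, Gp1bb, Gp9 and Itgb3 show both Id2Δ/Δ points above both Id2+/+ points, while both replicate 2 points of Vwf lie above both replicate 1 points.

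Pf4 (ENSMUSG00000029373.7) encodes platelet factor 4, a heparin-binding chemokine of the alpha granule, and is used as a marker of megakaryocytes. It lies on chromosome 5 from 90772435 to 90773383 on the plus strand of GRCm38, as do all coordinates here. Its level was 6.13 and 6.68 log2 CPM (69.8 and 102 CPM) in Id2+/+ replicates 1 and 2, and 7.23 and 6.86 log2 CPM (151 and 117 CPM) in Id2Δ/Δ replicates 1 and 2. The genotypes did not overlap, the nearest libraries being Id2+/+ replicate 2 and Id2Δ/Δ replicate 2. The difference was 0.65 ± 0.21 (SE, n = 2 libraries a genotype), a 1.57-fold higher level with a 95% confidence interval of 0.15 to 1.14 on the log2 scale (limma adjusted p = 0.910). It was 0.37 and 0.92 without Id2+/+ replicates 1 and 2, and 0.46 and 0.83 without Id2Δ/Δ replicates 1 and 2.

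Ppbp (ENSMUSG00000029372.7), the precursor of the neutrophil-attracting chemokine CXCL7, lies just before Pf4 on the same strand of chromosome 5, from 90768518 to 90770063. It was the scarcest of the 9 genes, with 58 and 56 reads in Id2+/+ replicates 1 and 2 and 49 and 50 reads in the Id2Δ/Δ replicates. These reads are 3.94 and 3.52 CPM in Id2+/+ and 2.77 and 2.93 CPM in Id2Δ/Δ HSCs. Both Id2Δ/Δ libraries lay below both Id2+/+ libraries, the reverse of Pf4. Exact Poisson intervals, which cover counting error only, ran from 3.10 to 5.28 CPM in Id2+/+ replicate 1 and from 2.04 to 3.65 CPM in Id2Δ/Δ replicate 1, so that they overlapped. Such intervals, here and for Treml1, are reads over the derived depth and not on the normalized scale of the deposited CPM values. The difference was -0.39 ± 0.42 (SE, 95% confidence interval -1.38 to 0.60, limma adjusted p = 0.924). Per kilobase of its longest transcript, Pf4 exceeded Ppbp by 32.6-fold and 53.6-fold in the Id2+/+ libraries and by 100-fold and 73.2-fold in the Id2Δ/Δ libraries.

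Gp1bb and Gp9 encode subunits of the GPIb-IX-V complex, the platelet receptor for von Willebrand factor. Gp1bb (ENSMUSG00000050761.3; chromosome 16, 18620317 to 18622403, minus strand) drew 131 and 170 reads in Id2+/+ replicates 1 and 2 and 344 and 262 reads in the Id2Δ/Δ replicates. On the log2 scale these are 3.17 and 3.42 against 4.27 and 3.82 log2 CPM. No Id2+/+ library reached the lower Id2Δ/Δ library. The difference was 0.75 ± 0.27 (SE), a 1.68-fold higher level with a 95% confidence interval of 0.12 to 1.38 (limma adjusted p = 0.910). It was the largest of the 9 differences. Of the 2087 exon bases of Gp1bb, 1902 are also exon bases of Sept5, a septin gene on the same strand, and 867 are shared with Gm49601, which was not analysed here. The row of Sept5 held 23 and 10 reads in Id2+/+ and 38 and 33 reads in Id2Δ/Δ libraries, a difference of 1.06 ± 0.71 (SE, limma adjusted p = 0.910). How reads in the shared bases were divided is not given in the sources used here, and which gene the Gp1bb reads came from was not tested.

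Gp9 (ENSMUSG00000030054.4; chromosome 6, 87778072 to 87779768, plus strand) was more abundant. It was at 5.47 and 5.24 log2 CPM (44.2 and 37.8 CPM) in Id2+/+ and at 5.60 and 5.84 log2 CPM (48.6 and 57.3 CPM) in Id2Δ/Δ libraries. The genotypes were separated by a gap smaller than the spread within either of them. The difference was 0.37 ± 0.17 (SE), with a 95% confidence interval of -0.04 to 0.77 (limma adjusted p = 0.910). The remaining subunits did not separate the genotypes. Gp1ba, the subunit that holds the binding site for von Willebrand factor, was at 3.78 and 4.05 log2 CPM in Id2+/+ and 3.94 and 3.82 log2 CPM in Id2Δ/Δ libraries, a difference of -0.03 ± 0.24 (SE, 95% confidence interval -0.58 to 0.52). Gp5 was at 4.87 and 4.69 log2 CPM in Id2+/+ and 5.17 and 4.59 log2 CPM in Id2Δ/Δ libraries, a difference of 0.10 ± 0.24 (SE, 95% confidence interval -0.45 to 0.66). Per kilobase, Gp9 exceeded Gp1bb by 11.6-fold and 8.38-fold in Id2+/+ and by 5.96-fold and 9.61-fold in Id2Δ/Δ libraries. The proteins are partners in 1 complex, but most exon bases of Gp1bb are shared with Sept5. Since the division of reads in those bases is not known, the level of Gp1bb per kilobase may be misjudged. Gp9 exceeded Gp1ba by 7.01-fold to 12.5-fold and Gp5 by 3.36-fold to 5.94-fold over the 4 libraries.

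Itga2b and Itgb3 encode the α and β chains of the platelet fibrinogen receptor, integrin αIIbβ3. Itga2b (ENSMUSG00000034664.13; chromosome 11, 102453297 to 102470122, minus strand) was at 7.73 and 7.40 log2 CPM (212 and 169 CPM) in Id2+/+ and at 7.47 and 7.78 log2 CPM (177 and 219 CPM) in Id2Δ/Δ libraries. The genotypes interleaved, and the difference was 0.06 ± 0.16 (SE, 95% confidence interval -0.31 to 0.43, limma adjusted p = 0.961). Itgb3 (ENSMUSG00000020689.4; chromosome 11, 104608000 to 104670476, plus strand) was at 5.87 and 5.92 log2 CPM (58.4 and 60.5 CPM) in Id2+/+ and at 6.11 and 6.07 log2 CPM (69.2 and 67.1 CPM) in Id2Δ/Δ libraries. Its libraries were close together within a genotype, with a pooled SD of 0.03 where the median over all genes was 0.21. The difference was 0.20 ± 0.14 (SE, 95% confidence interval -0.13 to 0.52, limma adjusted p = 0.910), the moderated error being far above the gene's own spread. Per kilobase, Itga2b exceeded its partner Itgb3 by 4.30-fold to 6.10-fold over the 4 libraries, and the genotypes overlapped in this ratio. Itgb3 also pairs with the αv chain.

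Vwf and Selp encode adhesive proteins of the alpha granule that are also made by endothelial cells. Vwf (ENSMUSG00000001930.17; chromosome 6, 125546774 to 125686679, plus strand) encodes von Willebrand factor. It was at 6.85 and 7.54 log2 CPM (115 and 187 CPM) in Id2+/+ and at 6.84 and 7.55 log2 CPM (115 and 188 CPM) in Id2Δ/Δ libraries. The same-numbered libraries of both genotypes were thus almost equal, and replicate 2 exceeded replicate 1 by 0.69 in Id2+/+ and by 0.71 in Id2Δ/Δ HSCs. The genotype difference was 0.00093 ± 0.28 (SE, 95% confidence interval -0.66 to 0.66, limma adjusted p = 1.00). The estimate without any 1 library ran from -0.35 to 0.36. Both replicate 2 libraries lay above both replicate 1 libraries for 2556 of all genes (16.1%). Whether the replicate number stands for an experiment is not given by the labels, and the source of this spread was not tested.

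Selp (ENSMUSG00000026580.16; chromosome 1, 164115264 to 164150026, plus strand) encodes P-selectin, which moves to the platelet surface on activation and binds leukocytes. It was at 5.99 and 5.87 log2 CPM (63.4 and 58.6 CPM) in Id2+/+ and at 6.28 and 5.84 log2 CPM (77.8 and 57.2 CPM) in Id2Δ/Δ libraries. Id2Δ/Δ replicate 1 was the highest library and Id2Δ/Δ replicate 2 the lowest, and without replicate 1 the difference was -0.09 in place of 0.13 ± 0.18 (SE, 95% confidence interval -0.30 to 0.56, limma adjusted p = 0.933). Selp shares 186 exon bases with Gm16587 and 438 with Gm16548 on the opposite strand. Their rows were at 2.93 to 3.43 and 3.30 to 3.99 log2 CPM, and whether the counting used strand is not given in the sources used here.

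Treml1 (ENSMUSG00000023993.6; chromosome 17, 48359916 to 48367176, plus strand) encodes TLT-1, a receptor of the alpha granule membrane found in megakaryocytes and platelets. The reads were 75 and 221 in Id2+/+ replicates 1 and 2 and 284 and 194 in the Id2Δ/Δ replicates, which are 2.36 and 3.82 against 3.98 and 3.41 log2 CPM. Id2+/+ replicate 1 stood below the other 3 libraries. Its exact Poisson interval, which covers counting error only, was 4.15 to 6.62 CPM. It did not reach that of Id2+/+ replicate 2, 12.3 to 16.1 CPM. The cause of the gap within Id2+/+ was not tested. The pooled SD of 0.78 was larger than that of 91.5% of the genes tested. The difference was 0.60 ± 0.48 (SE, 95% confidence interval -0.52 to 1.73, limma adjusted p = 0.910). Without Id2+/+ replicate 1 it was -0.13, and without Id2+/+ replicate 2 it was 1.33.

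**Figure D2:**
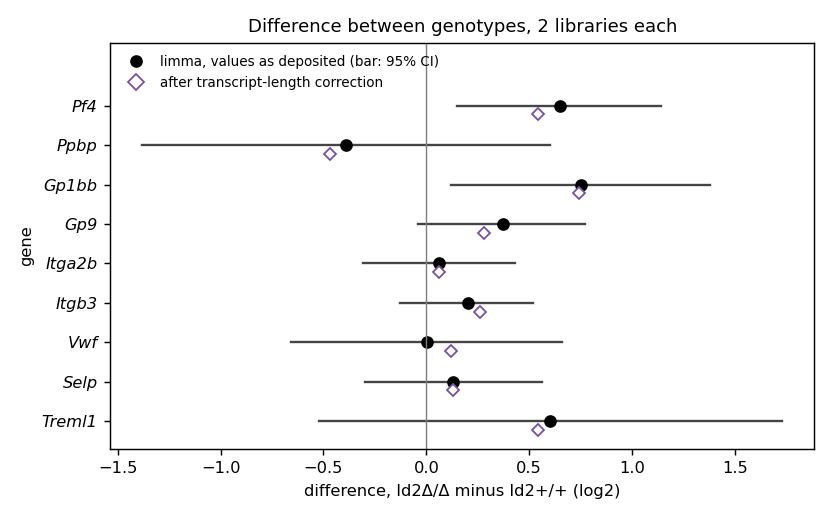
Log2 difference between Id2Δ/Δ and Id2+/+ HSCs for each gene with its 95% confidence interval (2 libraries a genotype), and the difference after each library's trend with transcript length was taken off (diamonds). Only the intervals of Pf4 and Gp1bb leave out 0, before adjustment over all genes, and the bars of Treml1 and Ppbp are the widest.

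The spread between libraries of the same genotype differed in form among the 9 genes. Vwf was the only one whose replicate 2 libraries both lay above both replicate 1 libraries, and Selp the only one where both lay below. Treml1 differed by 1.46 between the Id2+/+ replicates and by -0.58 (replicate 2 minus replicate 1) between the Id2Δ/Δ replicates. Pf4 and Gp1bb also moved in opposite directions, by 0.55 and 0.24 in Id2+/+ and by -0.37 and -0.45 in Id2Δ/Δ libraries. Itgb3 moved least, by 0.05 and -0.04.

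**Figure D3:**
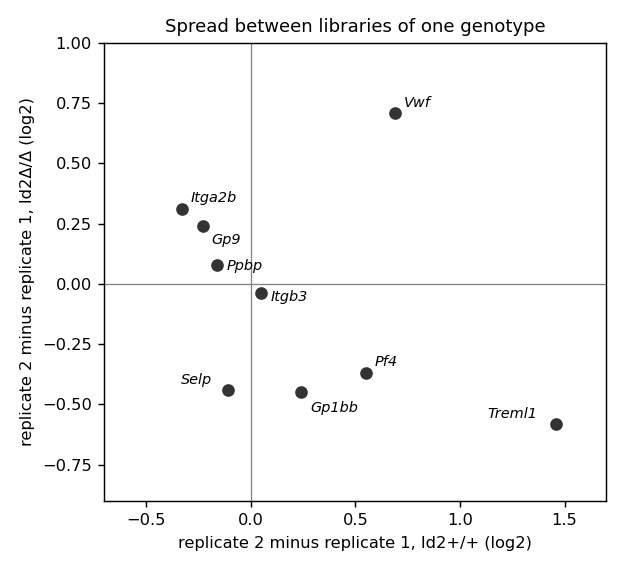
Replicate 2 minus replicate 1 of each gene on the log2 scale, in Id2+/+ HSCs (horizontal axis) and in Id2Δ/Δ HSCs (vertical axis), 1 point a gene. Vwf is the only gene in the quadrant where both are positive, and Treml1 lies farthest out on the Id2+/+ axis at 1.46.

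Levels were set side by side as CPM per kilobase of the longest annotated transcript, on a linear scale. Pf4 was the most abundant, with a mean of 187 CPM per kb over the 4 libraries and a level above that of 98.7% of the genes tested. Its range, 119 to 174 in Id2+/+ and 198 to 256 CPM per kb in Id2Δ/Δ libraries, was apart from that of every other gene followed. Itga2b followed with a mean of 56.5 and Gp9 with 53.3 CPM per kb, above 92.2% and 91.5% of genes, and their ranges overlapped. Selp had a mean of 18.7, Vwf of 17.1, Itgb3 of 11.0 and Treml1 of 9.25 CPM per kb, and neighbours in this order overlapped, except that all libraries of Selp and Vwf lay above those of Itgb3. Gp1bb had a mean of 6.37 and Ppbp of 3.04 CPM per kb, above 40.4% and 25.5% of genes. The 4.33 to 5.12 CPM per kb of Gp1bb in Id2+/+ libraries did not overlap with its 6.77 to 9.27 CPM per kb in Id2Δ/Δ libraries, and all 4 were above Ppbp. Gp1bb and Treml1 overlapped. The order held for the longest transcript of each gene, and a shorter one in use would raise the level. The level of Gp1bb also depends on how reads in the bases shared with Sept5 were divided, which is not known.

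**Figure D4:**
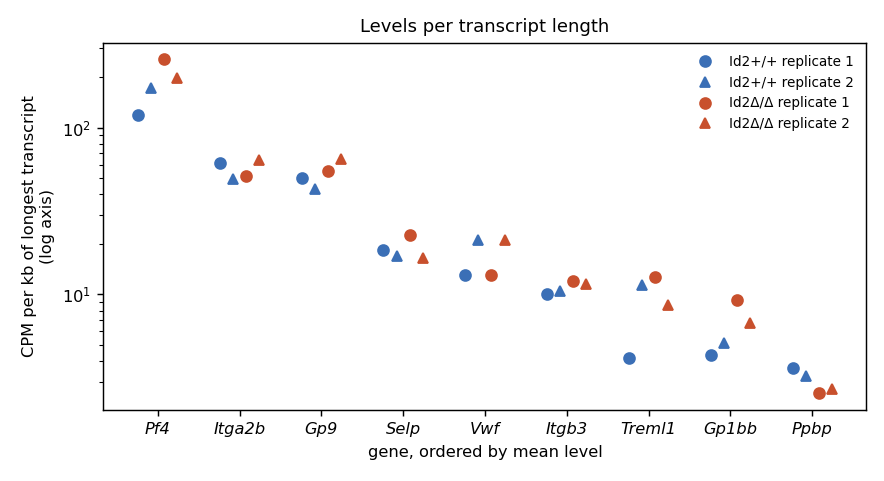
CPM per kilobase of the longest annotated transcript on a log axis for each gene and library, ordered by the mean over the 4 libraries. Pf4 at 119 to 256 CPM per kb is above all others, and Ppbp at 2.55 to 3.64 CPM per kb is the lowest.

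The 9 genes were also summed within each library. The summed level was 581 and 643 CPM in Id2+/+ and 676 and 733 CPM in Id2Δ/Δ libraries. The median deviation of the 9 genes from their own means was -0.12 and -0.07 in Id2+/+ and 0.12 and 0.14 in Id2Δ/Δ libraries, with all genes at -0.003 to 0.016. The depth of the libraries rose in the same order, from 14207350 to 18831991 reads, and its part in the result was not tested. The HSC marker list, with all 12 genes listed, summed to 6167 and 6062 CPM in Id2+/+ and 4543 and 5194 CPM in Id2Δ/Δ libraries. Of these 12 genes, 6 lay below in both Id2Δ/Δ libraries, where the background was 15.8% of all genes, and 1 above, where it was 19.0%. In limma, 4 of the 12 had an unadjusted p under 0.05, beside 4.67% of all genes. Kit, the stem cell factor receptor used in the sort, was 11.08 and 10.93 against 10.19 and 10.55 log2 CPM, a difference of -0.63 ± 0.13 (SE, limma adjusted p = 0.910). The part of this shift in the values of the platelet genes was not tested.

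Markers of mature megakaryocytes and of other blood cells were set beside these values. The 10 late megakaryocyte and platelet markers, 7 of which are also in the platelet lists described last, all had a row and summed to 290 and 283 CPM in Id2+/+ and 300 and 266 CPM in Id2Δ/Δ libraries, so that the genotypes overlapped. The highest of these sums was in Id2Δ/Δ replicate 1, the library highest in Pf4, Gp1bb, Itgb3, Selp and Treml1, and the lowest was in Id2Δ/Δ replicate 2. Of the 10 markers, 3 lay above and 2 below in both Id2Δ/Δ libraries, beside 19.0% and 15.8% of all genes. An unadjusted p under 0.05 was found for 2 of the 10, beside 4.67% of all genes. Tubb1, the β1 tubulin of platelets, was at 0 in Id2Δ/Δ replicate 1, and Gp5 was highest there at 5.17 log2 CPM. Neither Tubb1 nor Gp5 is among the 2 with an unadjusted p under 0.05. Erythroid markers (12 of 14 with a row) summed to 1951 to 2060 CPM in Id2+/+ and 1837 to 1949 CPM in Id2Δ/Δ libraries, nearly all of it Car2, and Hba-a1 and Hba-a2 were at 0 in at least 1 library. Neutrophil markers (14 of 14) summed to 195 to 316 against 161 to 293 CPM, and monocyte and macrophage markers (7 of 8) to 224 to 249 against 216 to 291 CPM. B cell markers (4 of 9) summed to 40.4 to 42.4 against 40.3 to 57.3 CPM, T and NK cell markers (3 of 10) to 25.6 to 28.1 against 26.5 to 31.0 CPM, and mast cell and basophil markers (4 of 8) to 4.15 to 6.75 against 4.85 to 12.3 CPM. The markers that the sort selects against (4 of 7) summed to 63.1 to 69.8 against 59.6 to 67.9 CPM. The part of these cells in the result was not tested.

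The wider platelet program was described with 6 lists that hold 149 genes, of which 143 were tested. None was called. Of the 143, 71 had a higher and 72 a lower mean in Id2Δ/Δ HSCs, and the median difference was -0.0029. The genotypes did not overlap for 27 that were higher (18.9%) and 22 that were lower (15.4%) in Id2Δ/Δ HSCs, beside the 19.0% and 15.8% of all genes. At an unadjusted p under 0.05 there were 4 of the 143 in the higher and 6 in the lower direction. The background in these directions was 1.72% and 2.95% of all genes. No gene of the lists is among the 9 followed here.

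Among 23 other platelet receptors tested, 10 were higher and 13 lower, with a median of -0.06. Itgb1, the β1 integrin chain and 1 of the 2 with the highest mean log2 CPM (not divided by length, as for the lists that follow), differed by 0.07 ± 0.12 (SE). Clec1b, which encodes the podoplanin receptor CLEC-2, had 39 and 42 reads in Id2+/+ and 226 and 80 reads in Id2Δ/Δ libraries. Its difference of 1.52 ± 0.53 (SE, limma adjusted p = 0.910) was 2.25 without Id2Δ/Δ replicate 2 and 0.80 without Id2Δ/Δ replicate 1, so its size rested mostly on the library with 226 reads.

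Among 24 genes of granule cargo and granule formation tested, 10 were higher and 14 lower, with a median of -0.04. Angpt1 (angiopoietin 1) and Mmrn1 (multimerin 1), the highest in log2 CPM, differed by -0.12 and -0.06. Nbeal2, which is needed to form alpha granules, was at 8.04 and 8.01 log2 CPM in Id2+/+ and 7.67 and 7.78 log2 CPM in Id2Δ/Δ libraries, a difference of -0.30 ± 0.11 (SE, limma adjusted p = 0.910). It was -0.19 after a correction for transcript length.

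Among 25 genes of platelet signalling and eicosanoid synthesis, 13 were higher and 12 lower, with a median of 0.0095 and none at an unadjusted p under 0.05. Tln1 (talin 1) and Fermt3 (kindlin 3), which switch on integrin αIIbβ3 from inside the cell, differed by -0.20 and -0.04. Tln1 differed by -0.09 after the length correction and by -0.11 to -0.30 with each library left out in turn. Among 19 cytoskeletal genes, 10 were higher and 9 lower, with a median of 0.0099. Flna, the filamin that ties GPIb to actin, differed by -0.36 ± 0.12 (SE, limma adjusted p = 0.910), and Pfn1 (profilin 1) by 0.13. Tuba8, an α tubulin, was at 4.53 and 4.59 log2 CPM in Id2+/+ and 5.46 and 5.07 log2 CPM in Id2Δ/Δ libraries, a difference of 0.71 ± 0.20 (SE, limma adjusted p = 0.910).

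Among 28 megakaryocyte transcription factors, 13 were higher and 15 lower, with a median of -0.01. Lmo2 and Meis1, the highest in log2 CPM, differed by -0.15 and -0.20, and Mef2c by -0.29 ± 0.11 (SE, limma adjusted p = 0.910). After the length correction Meis1 differed by -0.10. Gata1, outside the naming rule and chosen after its value was seen, was at 4.85 and 4.81 log2 CPM in Id2+/+ and 5.37 and 5.09 log2 CPM in Id2Δ/Δ libraries, a difference of 0.41 ± 0.18 (SE, limma adjusted p = 0.910). It was likewise after seeing their values that Fli1, with a difference of 0.0069 ± 0.11 (SE), and Runx1, with -0.17 ± 0.11 (SE), were added.

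Among 24 genes tied to HSC ageing or platelet bias, 15 were higher and 9 lower, with a median of 0.14, which was -0.08 without Id2+/+ replicate 1. Clca3a1, a gene of the chloride channel accessory family, was at 4.42 and 4.32 log2 CPM in Id2+/+ and 5.18 and 5.02 log2 CPM in Id2Δ/Δ libraries, a difference of 0.73 ± 0.19 (SE, limma adjusted p = 0.910). Sdpr (Cavin2), which encodes a coat protein of caveolae, differed by 0.54 ± 0.18 (SE, limma adjusted p = 0.910), and by 0.34 without Id2+/+ replicate 1. Cd74, the invariant chain of MHC class II, differed by -0.46 ± 0.11 (SE, limma adjusted p = 0.910). The early-response genes Klf6 and Zfp36, the highest of this list in log2 CPM, followed the replicate number as Vwf did. Replicate 2 exceeded replicate 1 in Klf6 by 1.90 in Id2+/+ and 2.38 in Id2Δ/Δ libraries, and in Zfp36 by 0.83 and 1.26.

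**Figure D5:**
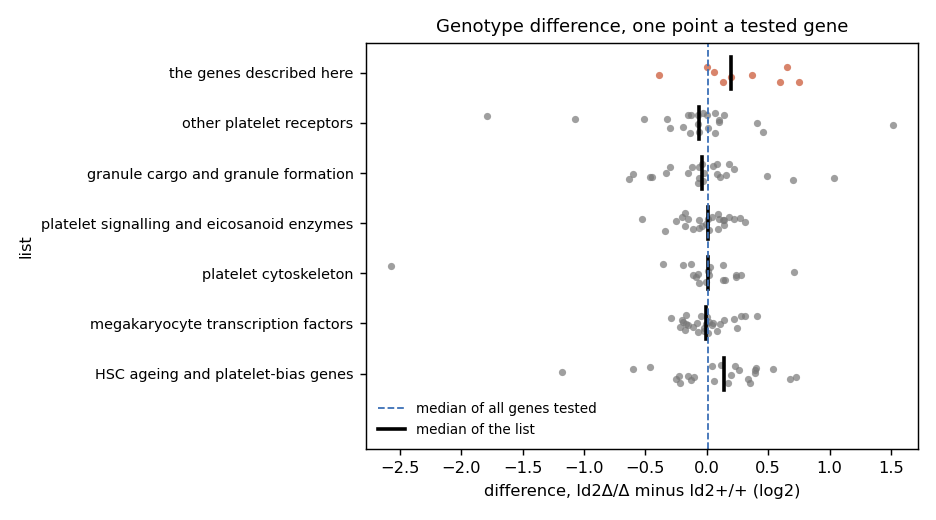
Log2 difference between Id2Δ/Δ and Id2+/+ HSCs, 1 point a tested gene, for the 9 genes followed (orange) and the 6 lists (grey), with the median of each (black) and of all genes (dashed). The 9 genes have the highest median at 0.20, and the medians of the lists lie between -0.06 and 0.14.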

How the data were processed

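RNA of sorted HSCs was sequenced in 4 libraries (2 Id2+/+, 2 Id2Δ/Δ). The authors deposited log2 CPM values, and since the sorted columns differ by less than 0.1 in 88.4% of ranks, the deposited log2 values are described here as quantile-normalized. The submitters' processing notes name CASAVA 1.8.4, Trimmomatic 0.30, TopHat2 2.0.8, RSEM and STAR with the builds mm9 and NCBIM37, and which of them made these values is not given in the sources used here. All 4 columns were used, without a pseudocount. Genes with a mean CPM of 1 or more were fitted with limma 3.58.1 (R 4.3.3, lmFit, then eBayes allowing the variance to follow intensity). The fit had a term for genotype alone and was two-sided, with Benjamini-Hochberg adjustment over all genes. It was also run on simulated data, and the outcome of that run is not given here. Confidence intervals are at 95%. Reads were recovered only below 32 CPM, so no count model was run. GENCODE M21 (GRCm38) supplied coordinates and transcript lengths by Ensembl identifier, which matched for 99.7% of genes, and 82% had the same version. The files give no coordinates.

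The members, lists and tests were chosen with earlier results of these data known. Named genes are all members and, from each list, the 2 with the highest mean log2 CPM and up to 3 with the smallest unadjusted p under 0.05, and 1 gene that this rule picks is not reported here. The alternatives were other pseudocounts, filters, scaling, no intensity trend, a length correction, a replicate block, and each library left out. The comparison of replicate numbers and the read intervals were added after seeing the data.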

Additional observations from a re-analysis of the deposited data

How the results depend on the processing

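No member was called under any alternative run. With a minimum mean of 10 CPM, which drops Ppbp, the median difference of the members was 0.28. Without the intensity trend 1 member (Gp1bb) had an unadjusted p under 0.05 in place of 2. Under median-ratio rescaling Vwf differed by -0.01, with a sign opposite to its value of 0.00093. After the length correction the median of the members was 0.26, Pf4 differed by 0.54 and Vwf by 0.12, and Nbeal2 (-0.19), Flna (-0.25) and Mef2c (-0.21) no longer had an unadjusted p under 0.05. With the replicate block 1 gene was called over all genes tested, C130089K02Rik, which is no member, and Pf4 and Gp1bb remained the 2 members at an unadjusted p under 0.05, with differences of 0.65 and 0.75. When the length correction was added to the replicate block, the median was 0.26 and 0 genes were called. The same-numbered libraries had deviations that correlated at 0.0592 over all genes and at 0.139 over genes above 32 CPM, with 2 pairs. Leaving out each library in turn gave 0 to 2 members and 196 to 2516 genes at an unadjusted p under 0.05, 196 without Id2+/+ replicate 1 and 2516 without Id2Δ/Δ replicate 2, and a member median of 0.19 to 0.31. The genes whose sign turned then ranged from -0.35 to 0.36 for Vwf, -0.10 to 0.22 for Itga2b, -0.09 to 0.35 for Selp, -0.13 to 1.33 for Treml1, -0.05 to 0.19 for Itgb1, -0.13 to 0.0035 for Mmrn1, -0.11 to 0.02 for Fermt3, -0.96 to 1.42 for Klf6 and -0.29 to 0.97 for Zfp36. The cause of these shifts was not tested. Genotype overlap was counted as deposited, with no filter and with a minimum of 10 CPM, and was not run under the other settings. Among the members, depth limits Ppbp most, at 49 to 58 reads a library.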
